A study of Mus musculus with 18 samples.

Results

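Bmp, Tgf-beta and activin signalling genes were read in the middle part of E9.5 mouse embryos, homozygous mutant, heterozygous or wild type for Nkx2-5 (Csx), which encodes a cardiac homeobox factor. The members were taken by symbol: probe sets with a single gene symbol that starts with Bmp, Tgfb, Smad, Acvr, Inhb, Gdf or Ltbp, or with Id and a digit, or that is Inha, Fst, Nog, Chrd, Nodal, Lefty1 or Lefty2. The rule found 55 of 13057 probe sets, for 46 genes, 32 on type a arrays and 23 on type b arrays. None of them carries the symbol Chrd, Lefty2, Tgfb1, Bmp10, Smad6 or Smad7, so the results do not cover these genes. A probe set is a group of oligonucleotides read as 1 intensity, and the 2 array types carry different probe sets. Each genotype had 3 arrays of each type, 18 in all, and the deposited values are linear intensities from which background had been subtracted.

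The groups were homozygous mutants (arrays 2, 6 and 8 on type a, and 2, 6 and 9 on type b, written 8a and 9b below), heterozygous embryos (3, 4 and 8) and wild-type embryos (1, 5 and 7), all of the same day and body part. The labels name no allele, strain, sex, litter or somite stage and leave unsaid if embryos were pooled, so p-values here cover no more than array-to-array spread, part of which may be technical. Nkx2-5 itself had no probe set with its symbol here, so the genotypes are those of the labels. Defining markers of the heart were present, with the lowest of 9 arrays at 5987.5 for Tnnc1, a troponin of heart muscle, and globin and nerve genes were present too. Heart levels were not even: Myl2 on type a had 1306 in homozygous mutant 2 and 14668 in 8a, against 6649 to 8710 in wild type. In such bulk tissue fewer cells of a type and less RNA per cell cannot be told apart.

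The family works through secreted dimers. Bmp, Gdf, Tgf-beta, activin and Nodal ligands bind pairs of type I and type II receptor kinases, which phosphorylate receptor Smads. These join Smad4, the shared partner, enter the nucleus and switch on targets, among which the Id genes are direct and rapid targets of the Bmp branch. Noggin and chordin trap Bmps, follistatin traps activins and some Bmps, Lefty proteins block Nodal, and latent Tgf-beta binding proteins hold Tgf-beta in the matrix. In the embryonic heart Bmp signals help to specify cardiac progenitors and, with Tgf-beta, to form the valve cushions.

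About as many members were bright enough to test as were not. A floor was set at 2 times the noise SD (375.1 for type a, 523.1 for type b), and a probe set was tested when at least 3 of its 9 arrays exceeded it. This held for 26 of the 55 members, for 23 genes, which is 47.3% of them against 61.4% of all probe sets with 1 symbol. Of the 55 members 18 exceeded the floor on all 9 arrays, 8 on 1 or 2 arrays, and 21 on none. A probe set that reads as background may be a poor probe, and its gene is not thereby shown to be silent.

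**Figure D1:**
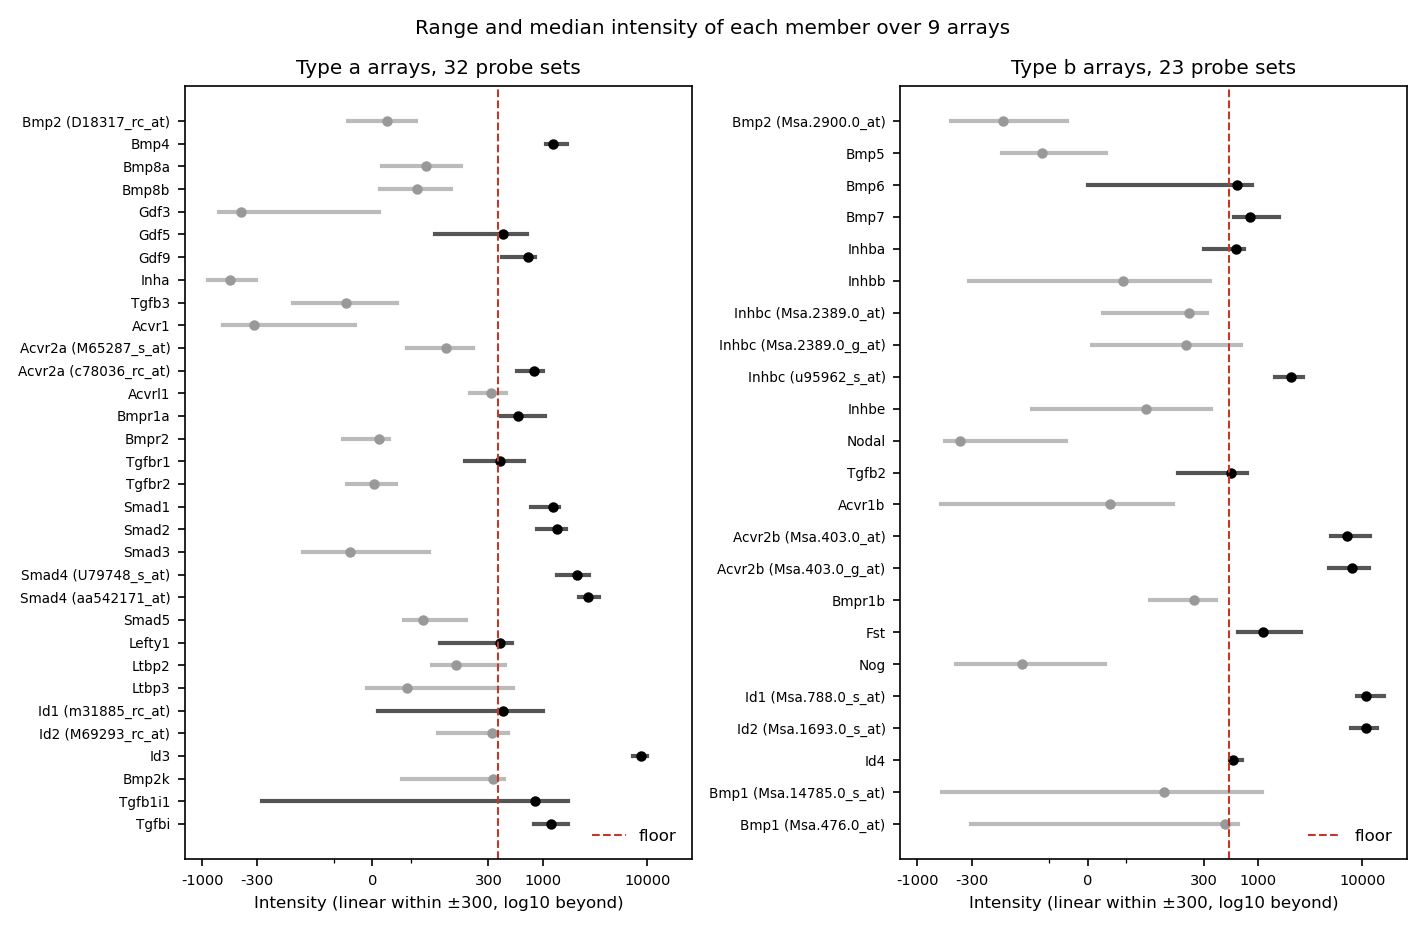
Intensity of each member over the 9 arrays of its type, as a line from the lowest to the highest array with a dot at the median, on an axis that is linear within ±300 and log10 beyond, with tested members dark, untested ones pale and the floor dashed. The 26 tested members include Id1, Id2, Id3 and both Acvr2b probe sets, each at 4765 or more on every array at its bright probe set, while Bmp2, Nodal and Inha stay under the floor on all arrays.

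No member passed the test in any comparison. By limma with Benjamini-Hochberg adjustment over all 6935 tested probe sets, 0 of 26 members passed an adjusted p of 0.05 between homozygous mutants and wild type, where 48 of all tested probe sets did (0.692%). Heterozygous against wild type gave 0 of 26 members and 0% of all tested probe sets, and homozygous mutant against heterozygous gave 0 of 26 members and 1.15% of all. With backgrounds this low, 26 members would hold less than 1 call at the same rate, so the zeros do not set the family apart. At an unadjusted p under 0.05 the members numbered 0 of 26 in homozygous mutants against wild type, where 11.2% of all tested probe sets reached it. The numbers were 0 of 26 in heterozygotes against wild type, where 1.70% of all did, and 3 of 26, all higher in the mutants, in homozygous mutants against heterozygotes, where 15.7% did.

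With all arrays in the fit, every estimated difference of a member was under 2-fold. Between homozygous mutants and wild type the members' log2 fold changes ran from -0.32 for Gdf9 to 0.58 for Fst, with a median of 0.07, against -0.02 over all tested probe sets. Their median size without sign was 0.222, against 0.216 over all. In heterozygotes against wild type they ran from -0.31 to 0.37 with a median of 0.06, against 0.03 over all. In homozygous mutants against heterozygotes they ran from -0.42 to 0.74 with a median of 0.09, against -0.07 over all. The members' median size without sign was larger than that of all tested probe sets there, 0.354 against 0.260. In heterozygotes against wild type it was 0.129, against 0.136 over all. The comparisons share arrays, so their values are set side by side and not counted as separate evidence.

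The intervals show the precision. For 21 of the 26 members the 95% interval of the difference between homozygous mutants and wild type lay inside a 2-fold change in either direction, without adjustment for the number of members. The 5 others were Bmp7, Fst, Tgfbi, Tgfb1i1 and the dim type a probe set of Id1. For heterozygotes against wild type 23 of 26 intervals lay inside that range, all but those of Bmp7, Fst and Tgfb1i1. For homozygous mutants against heterozygotes 17 of 26 did. The intervals leave room for smaller changes in either direction. For the 8 tested members with only 5 or 6 of 9 arrays above the floor (Bmp6, Gdf5, Lefty1, Tgfbr1, Tgfb2, Inhba, Tgfb1i1 and Id1 on type a) they describe values raised to the floor and do not bound the change. Raising values to the floor can shrink, enlarge or turn a difference. The 0.49 of Id1 on type a became 0.40 with the floor at 1 time the noise SD. Lefty1 averaged 340.4 in homozygous mutants and 384.1 in wild type before flooring, yet had a log2 fold change of 0.06.

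**Figure D2:**
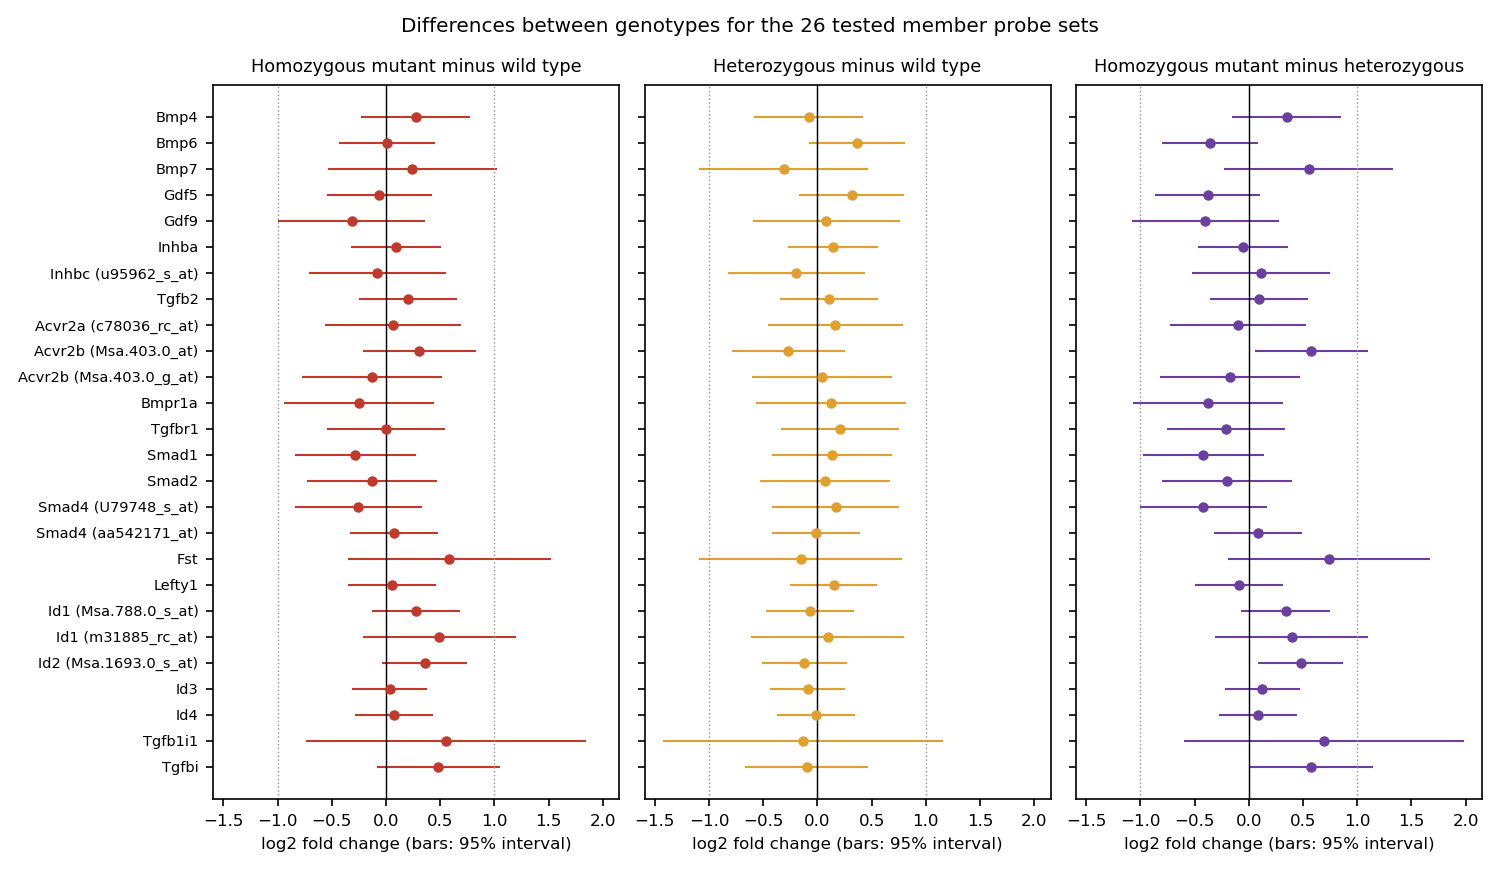
Log2 fold change of each of the 26 tested members (dots) with its 95% interval (bars) in the 3 comparisons, grouped by role from ligands at the top, with dotted lines at a 2-fold change. In the panel of homozygous mutants against wild type every interval takes in 0, and Fst (0.58), Tgfb1i1 (0.56) and Id1 at its type a probe set (0.49) lie farthest to the right.

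The Id genes, which encode helix-loop-helix proteins that bind E proteins and keep them off DNA, include the member of smallest p between homozygous mutants and wild type, Id2. All 5 tested Id probe sets had a positive difference between homozygous mutants and wild type, none past the test, as did 17 of all 26 members and 46.9% of all tested probe sets. The shared sign rests on arrays 8a and 9b: without them Id3 was at -0.019 and Id4 at -0.020. Smads are known to act on Id promoters, so the sequences around the starts of 3 of the 4 Id genes are shown as background, 250 bases before to 50 bases after the start, from RefSeq on GRCm38.p6, 5′ to 3′ on the gene's strand. They are chr12:25096043-25096342 on the minus strand for Id2, chr4:136143572-136143871 on the plus strand for Id3 and chr13:48260866-48261165 on the plus strand for Id4. Id1 has no entry. Capitals mark GGCGCC, a GC-rich motif that Smads of the Bmp branch bind, and GTCT or its complement AGAC, the Smad box.
Id2: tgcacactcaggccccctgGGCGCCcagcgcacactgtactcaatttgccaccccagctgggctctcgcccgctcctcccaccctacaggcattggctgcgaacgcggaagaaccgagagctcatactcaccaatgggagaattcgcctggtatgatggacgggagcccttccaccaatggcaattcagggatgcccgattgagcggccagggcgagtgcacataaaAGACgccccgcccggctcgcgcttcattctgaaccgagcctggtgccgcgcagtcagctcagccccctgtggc
Id3: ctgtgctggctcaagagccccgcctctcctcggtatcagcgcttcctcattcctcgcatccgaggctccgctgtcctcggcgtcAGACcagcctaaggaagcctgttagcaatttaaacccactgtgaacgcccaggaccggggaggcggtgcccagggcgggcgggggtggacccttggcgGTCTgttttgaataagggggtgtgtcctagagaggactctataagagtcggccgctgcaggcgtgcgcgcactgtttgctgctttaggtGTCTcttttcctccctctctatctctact
Id4: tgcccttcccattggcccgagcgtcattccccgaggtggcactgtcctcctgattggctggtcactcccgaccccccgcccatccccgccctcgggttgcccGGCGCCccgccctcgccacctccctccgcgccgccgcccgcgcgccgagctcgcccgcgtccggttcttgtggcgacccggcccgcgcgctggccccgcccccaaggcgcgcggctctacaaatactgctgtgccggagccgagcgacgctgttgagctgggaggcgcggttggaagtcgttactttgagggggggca

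GGCGCC, which reads alike on both strands, occurs 1 time in the Id2 window, 1 time in that of Id4 and 0 times in that of Id3, and 11.9% of 32851 promoters of this length hold it. GTCT or AGAC occurs 1 time for Id2, 3 times for Id3 and 0 times for Id4, and 88% of all promoters hold it. The 2 motifs do not overlap in these windows. A match describes the letters only, and 31 of the 46 member genes had an entry in the promoter table.

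Id2 had intensities of 12408, 12376 and 13923 in homozygous mutants 2, 6 and 9b, against 10813, 9315 and 7855 in heterozygous 3, 4 and 8 and 11572, 8773 and 10035 in wild type 1, 5 and 7. All 3 homozygous mutants lay above all 6 other arrays. The log2 fold change was 0.36 against wild type (SE 0.178, 95% interval -0.03 to 0.75, limma adjusted p = 0.494) and 0.48 against heterozygotes (interval 0.09 to 0.87, adjusted p = 0.220). Without array 9b it was 0.30 against wild type (adjusted p = 0.541). Id2 was the 1 member of 26 whose homozygous mutant arrays all lay above the wild-type arrays, as did 7.24% of all tested probe sets, and 0 of 26 lay below, as did 8.19% of all. The other Id2 probe set, on type a, had 170.0 to 466.4 with 2 of 9 arrays above the floor and was not tested.

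Id1 on type b had 16131, 11659 and 10873 in homozygous mutants 2, 6 and 9b, against 10312, 8834 and 11086 in heterozygous embryos and 10552, 10002 and 10969 in wild type. Homozygous mutant 2 was highest and 9b fell among the wild-type values. The log2 fold change against wild type was 0.27 (SE 0.185, interval -0.13 to 0.68, adjusted p = 0.646), and 0.10 without homozygous mutant 2. The dim type a probe set of Id1 had 538.7, 199.1 and 997.9 in the mutants, against 15.7, 573.2 and 411.2 in heterozygotes and 267.6, 515.5 and 340.9 in wild type. Its 0.49 (adjusted p = 0.627) was 0.11 without array 8a and 0.81 without homozygous mutant 6.

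Id3 and Id4, named after their values were seen, complete the Id group. Id3 had 8941 ± 1487 in homozygous mutants, 8147 ± 805 in heterozygotes and 8664 ± 792 in wild type (SD, n = 3 each). Its log2 fold change between homozygous mutants and wild type was 0.04, with an interval of -0.31 to 0.38. Id4 had 618.0 ± 75.1, 582.6 ± 81.5 and 584.5 ± 45.7 in the same order, just above the floor, with a log2 fold change of 0.08 (interval -0.28 to 0.44).

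Among the Bmp and Gdf ligands 5 of 11 probe sets were tested. Bmp4, which patterns ventral and cardiac mesoderm, had 1714, 1560.0 and 1247 in homozygous mutants 2, 6 and 8a, against 1195, 1070.3 and 1254 in heterozygotes and 1089.9, 1321 and 1313 in wild type. Mutants 2 and 6 lay above all other arrays and 8a lay among them. The log2 fold change against wild type was 0.27 (SE 0.230, interval -0.23 to 0.78, adjusted p = 0.727), and 0.40 without array 8a (adjusted p = 0.499).

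Bmp7, a ligand that can pair with Bmp4, had 830.9, 1278 and 1136 in homozygous mutants, against 657.9, 649.7 and 892.3 in heterozygotes and 589.5, 1574 and 785.8 in wild type. Wild type spanned the whole range, and the log2 fold change was 0.24 in homozygous mutants (interval -0.54 to 1.02, adjusted p = 0.880) and -0.31 in heterozygotes (adjusted p = 1), each against wild type. The value in heterozygotes was 0.092 without wild type 5 and -0.62 without wild type 1. Bmp6, a ligand close to Bmp7, had the smallest unadjusted p of the family in heterozygotes against wild type. It had 410.4, 436.9 and 701.6 in homozygous mutants, against 876.9, 726.4 and 633.2 in heterozygotes and 1.2, 689.4 and 491.6 in wild type. All heterozygous arrays exceeded the floor and 1 of 3 arrays did in each other genotype, so that the log2 fold change of 0.37 (unadjusted p = 0.0949, adjusted p = 1) rests on values at the floor. It was 0.73 with the floor at 1 time the noise SD and 0.24 without heterozygous 3, with no call in either case.

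Gdf5, known for joint formation, had 430.1, 211.8 and 336.5 in homozygous mutants, against 499.7, 710.6 and 235.2 in heterozygotes and 417.8, 439.2 and 162.3 in wild type. Its values crossed the floor in every genotype, with log2 fold changes of -0.06 in homozygous mutants (adjusted p = 0.946) and 0.32 in heterozygotes (adjusted p = 1) against wild type. The value in heterozygotes was 0.079 without heterozygous 4 and 0.54 without heterozygous 8. Gdf9, best known from the oocyte, ranged from 402.6 to 840.4 over the 9 arrays. Bmp2, Bmp5, Bmp8a, Bmp8b and Gdf3 were under the floor on every array, Bmp2 at both of its probe sets. Bmp2 is a ligand whose loss disturbs heart formation in mice, and its highest array read 112.7.

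Among Tgf-beta, activin and Nodal ligands 3 of 10 probe sets were tested. Inhba, the activin A subunit, had 396.3, 616.8 and 729.9 in homozygous mutants, against 645.5, 702.6 and 580.6 in heterozygotes and 300.9, 709.2 and 447.8 in wild type. The groups overlapped, with a log2 fold change of 0.09 between homozygous mutants and wild type (interval -0.32 to 0.51, adjusted p = 0.913). Inhbc, an activin subunit known from liver, had 2219, 1851 and 2055 in homozygous mutants, against 2251, 1924 and 1539 in heterozygotes and 1449, 2532 and 2722 in wild type, at the only one of its 3 probe sets that was tested. The log2 fold change was -0.08 (interval -0.71 to 0.55, adjusted p = 0.946). Its other probe sets exceeded the floor on 0 and 1 of 9 arrays.

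Tgfb2, the Tgf-beta of the cardiac cushions, ranged from 233.7 to 788.4 and exceeded the floor on 5 of 9 arrays, 3 of them homozygous mutant. Its mean was 647.6 ± 115 in homozygous mutants, 510.8 ± 257 in heterozygotes and 443.9 ± 201 in wild type (SD, n = 3 each), and the log2 fold change between homozygous mutants and wild type was 0.20 (interval -0.25 to 0.65, adjusted p = 0.800). Tgfb3, Inha, Inhbb, Inhbe and Nodal were under the floor on all arrays. Nodal acts before this stage in the left-right axis and read -57.3 at its highest.

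Among receptors 5 of 12 probe sets were tested. Acvr2b, a type II receptor for activins and Nodal that is needed for left-right patterning, has 2 tested probe sets, named here by their endings _at and _g_at, which did not order the arrays alike. The _at probe set had 9067, 7177 and 11736 in homozygous mutants 2, 6 and 9b, against 6174, 5063 and 7353 in heterozygotes and 9605, 6318 and 6629.8 in wild type. The _g_at probe set had 5942, 4765 and 11682 in the mutants, against 6443, 7886 and 9286 in heterozygotes and 6608, 7934 and 8289 in wild type. Array 9b was the highest of 9 at both, and mutants 2 and 6 were above the heterozygous median at the first and below every heterozygous array at the second.

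The log2 fold changes of Acvr2b followed that split. Between homozygous mutants and wild type they were 0.31 (adjusted p = 0.690) at the _at probe set and -0.13 (adjusted p = 0.918) at the _g_at probe set, and 0.13 and -0.51 without array 9b. Between homozygous mutants and heterozygotes they were 0.58 (interval 0.06 to 1.10, adjusted p = 0.269) and -0.17 (interval -0.82 to 0.47, adjusted p = 0.821). No direction can be given for the gene.

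Bmpr1a, the type I receptor for Bmp2 and Bmp4, is named after its values were seen. It had 577.6, 486.2 and 478.9 in homozygous mutants, against 696.5, 617.7 and 682.4 in heterozygotes and 393.1, 1054 and 547.1 in wild type. Its homozygous mutant arrays lay below all heterozygous arrays, with a log2 fold change of -0.38 (interval -1.06 to 0.31, adjusted p = 0.596), while wild type spanned both. It was the 1 member of 26 with that order, as had 12.6% of all tested probe sets. Acvr2a and Tgfbr1, the other tested receptors, ranged from 565.3 to 1008 at the tested probe set and from 240.7 to 653.0. Acvr1, Acvr1b, Bmpr1b, Bmpr2 and Tgfbr2 were under the floor on all arrays, and Acvrl1, a receptor of endothelium, exceeded it on 2.

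Among Smads 4 of 6 probe sets were tested. Smad4, the partner shared by both branches, had 2721, 2892 and 2831 in homozygous mutants, against 2485, 2576 and 2914 in heterozygotes and 2214, 2526 and 3439 in wild type at aa542171_at. Mutants were the tightest group, and the log2 fold change against wild type was 0.07 (interval -0.34 to 0.48, adjusted p = 0.928). At U79748_s_at Smad4 had 1373, 2211 and 1498 in homozygous mutants, against 2131, 1857 and 2759 in heterozygotes and 1442, 2256 and 2373 in wild type, with -0.25 (interval -0.84 to 0.33, adjusted p = 0.806). The sign differed between its probe sets, and both intervals take in 0.

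Smad1, which carries Bmp signals, is named after its values were seen. It had 946.6, 1338 and 772.8 in homozygous mutants, against 1308, 1421 and 1259 in heterozygotes and 1209.9, 1241 and 1177 in wild type. Heterozygous arrays all lay above wild type by a narrow margin, with a log2 fold change of 0.14 (interval -0.42 to 0.69, adjusted p = 1). It was the 1 member of 26 with that order, as had 3.73% of all tested probe sets, and 0 of 26 lay below wild type in heterozygotes, as did 2.64% of all. Homozygous mutants 2 and 8a lay below every heterozygous and wild-type array, and mutant 6 lay among the heterozygous values. The log2 fold change of homozygous mutants was -0.28 against wild type and -0.42 against heterozygotes (limma adjusted p = 0.751 and 0.448). Smad2, of the Tgf-beta and activin branch, ranged from 887.9 to 1652, and Smad3 and Smad5 were under the floor on all arrays.

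Among antagonists and latency proteins 2 of 5 probe sets were tested. Fst, follistatin, had the largest difference of the family between homozygous mutants and wild type. It had 2604, 2139 and 1019.8 in homozygous mutants 2, 6 and 9b, against 1116, 1688 and 648.0 in heterozygotes and 1053, 1448 and 1106 in wild type. Mutants 2 and 6 lay above all other arrays and 9b lay below every wild-type array.

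The log2 fold change of Fst was 0.58 against wild type (SE 0.425, interval -0.35 to 1.52, adjusted p = 0.674) and 0.74 against heterozygotes (adjusted p = 0.423). Without array 9b they were 0.99 (adjusted p = 0.316) and 1.14 (adjusted p = 0.205). Lefty1, a Nodal antagonist of the left side, had 505.9, 175.4 and 339.9 in homozygous mutants, against 456.2, 503.2 and 202.0 in heterozygotes and 436.4, 386.3 and 329.5 in wild type, at or near the floor (log2 fold change 0.06 against wild type, adjusted p = 0.943). Nog, which encodes noggin, was under the floor on all arrays. Ltbp2 exceeded it on 1 array. Ltbp3 exceeded it on 2, homozygous mutants 2 and 6 with 521.5 and 470.7, while 8a read 133.3 and the 6 other arrays read from -14.4 to 137.0, so it was not tested.

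The symbol rule also takes in proteins that are no part of the signalling chain. Tgfbi, a matrix protein named for its induction by Tgf-beta, had 1753, 1326 and 1595 in homozygous mutants, against 1075, 1049.7 and 989.8 in heterozygotes and 1392, 1199 and 819.1 in wild type. Every mutant array lay above every heterozygous array, and mutant 6 lay below wild type 1. The log2 fold change was 0.48 against wild type (interval -0.09 to 1.05, adjusted p = 0.529) and 0.58 against heterozygotes (interval 0.01 to 1.14, adjusted p = 0.311). Without wild type 7 the value against wild type was 0.26 (adjusted p = 0.811). Tgfbi and Id2 were the 2 members of 26 whose homozygous mutant arrays all lay above the heterozygous arrays, as did 9.99% of all tested probe sets. Tgfb1i1, a focal adhesion protein, had 633.1, 1080.0 and 1499 in homozygous mutants, against 40.8, -168.8 and 1735 in heterozygotes and 1017, -285.6 and 845.9 in wild type. It lay under the floor on 2 of 3 heterozygous arrays and 1 of 3 wild-type arrays, and its log2 fold change of 0.56 had the widest interval of the family, -0.74 to 1.85. Bmp1, a protease that also cleaves chordin, exceeded the floor on 2 and 1 of 9 arrays at its probe sets, and Bmp2k, a kinase, on 2.

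The dimmer order of Bmp1 is given after its values were seen. At the probe set that exceeded the floor on 1 array it had 176.9, -304.0 and 255.2 in homozygous mutants 2, 6 and 9b, against 459.8, 522.5 and 477.9 in heterozygotes and 493.5, 643.0 and 513.9 in wild type. All 3 homozygous mutants lay below all 6 others, with 8 of 9 arrays under the floor, so no test was made there at the floor used. The share of untested probe sets with such an order was not counted. The other Bmp1 probe set had 196.8, 66.2 and 1102.5 in homozygous mutants, against 463.5, 408.4 and -582.5 in heterozygotes. Its wild-type arrays had 853.1, 32.7 and -279.9, so its groups overlapped and 9b read highest.

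**Figure D3:**
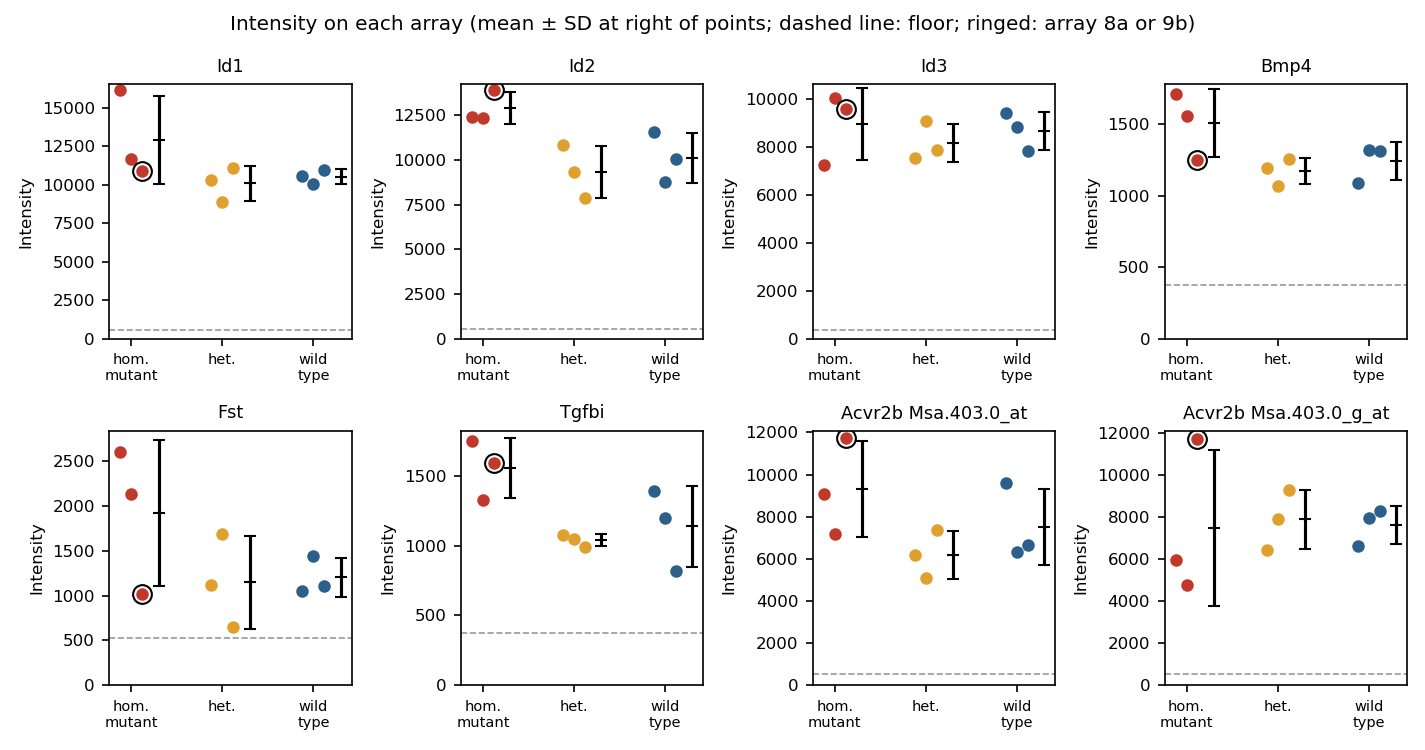
Intensity on each array for 8 probe sets (linear axes from 0), with homozygous mutant, heterozygous and wild-type arrays from left to right, the mean ± SD of 3 arrays beside the points, the floor dashed and array 8a or 9b ringed. The ringed array is the lowest homozygous mutant for Fst, Bmp4 and Id1 and the highest for Id2 and both Acvr2b probe sets.

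Arrays 8a and 9b, on which several of these values turn, stood apart in control signals. The mean BioB control signal was 3950 on 8a, against 965.6 to 1539 on the 8 others of that type. On 9b it was 4531, against 1498 to 2320 on the others. The actin 3'/5' signal ratio, which grows as RNA shortens, reached 2.50 for 8a, where the 8 others of that type had 0.967 to 1.41, and 2.28 for 9b, where the others had 0.849 to 1.40. Without both arrays no member passed in either comparison of homozygous mutants, with a smallest adjusted p of 0.316 against wild type and 0.205 against heterozygotes. The part of RNA quality, or of whatever raised the BioB signal, in the values of single members was not tested.

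Marker sums of some cell types also differed in range. Of 7 nerve genes 6 were tested, and their summed intensity was 4949 to 8397 in homozygous mutants on type a (Fabp7, Hes5, Nes and Sox2), against 11257 to 16859 in heterozygotes and 11493 to 15346 in wild type. On type b, with Pax3 and Tubb3, it was 852.1 to 1827, 2543 to 3477 and 2223 to 5576 in the same order. Against wild type the homozygous mutants had log2 fold changes of -1.95 (Tubb3), -1.33 (Fabp7), -1.07 (Hes5), -0.34 (Sox2) and -0.18 (Pax3). Nes entered the type a sum at both of its probe sets, with -1.02 and -2.07. The size of -2.07 depends on the floor, under which mutants 2 and 8a lay at 203.1 and -124.6. That of Tubb3 does too, with 9b at 243.8. None of these nerve genes passed the test against wild type, but against heterozygotes Hes5 did (-1.26, limma adjusted p = 0.0335). Of 7 endothelial genes 5 were tested, and Eng, Kdr and Tie1 on type b summed to 8943 to 17131 in homozygous mutants, against 6219 to 8237 in heterozygotes and 6955 to 9716 in wild type. On type a Cdh5 and Tek summed to 1806 to 2562, 1510 to 2326 and 1650 to 2608 in the same order, which overlap. The type b sums of homozygous mutants and wild type overlap as well, and the highest was that of array 9b. The log2 fold changes between homozygous mutants and wild type were 0.67 for Tie1 and 0.55 for Eng, and 0.17 for Tek, 0.04 for Kdr and 0.01 for Cdh5, none past the test. Array 9b read 10538 for Eng and 3603 for Tie1. Mutants 2 and 6 read 5764 and 5688 for Eng and 1525 and 1099 for Tie1, below wild type 1 (6535 and 1578). Heart genes on type a summed to 36820 to 108878 in homozygous mutants, 31661 to 71728 in heterozygotes and 47041 to 72490 in wild type. On type b they summed to 88935 to 167715, 94589 to 118844 and 107230 to 149461 in the same order. Both sets overlap. Over 10 heart probe sets the median log2 fold change between homozygous mutants and wild type was 0.09. The heart genes did not share a sign. Nppb had -1.15 (limma adjusted p = 0.129), and the probe sets of Myl2 had -0.83 and -0.84. Those of Myh6 had 0.37 and 0.12, and those of Actc1 had 0.14 and -0.10. Tnnt2 and Tnnc1 each had 0.21 and Myl4 had 0.06. Of the endoderm genes, Afp, Alb and Apoa1 on type b summed to 764.5 to 4544 in homozygous mutants. The sums were 1104 to 4350 in heterozygotes and 840.8 to 4913 in wild type. Afp there read 3642, 3309 and 3515 in homozygous mutant 2, heterozygous 4 and wild type 1, and 336.7 to 705.9 on the other arrays. Erythroid sums overlapped on both types. The part of these tissues in the values of Id2, Fst or Tgfbi was not tested.

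Other genes of the pathway, outside the symbol rule, gave no call either. Of 38 that the arrays name, 28 were tested at 31 probe sets, and 0 were called in either direction in any of the 3 comparisons. Eng, given above as an endothelial marker, is also counted among these 28. At an unadjusted p under 0.05 the numbers were 6 of 31 in homozygous mutants against wild type (11.2% of all tested probe sets), 0 in heterozygotes against wild type (1.70% of all) and 6 in homozygous mutants against heterozygotes (15.7% of all). The 6 against wild type, named after their values were seen, included 5 of the 13 tested probe sets of target genes. The other was 1 of the 2 probe sets of Ski, a Smad corepressor (-1.02, adjusted p = 0.368), whose other probe set had -0.26. At the first Ski read 85.1, 94.0 and 1118 in homozygous mutants, against 2122, 2880 and 1844 in heterozygotes and 1217, 928.7 and 2262 in wild type, so that 2 of 3 mutant arrays lay under the floor and the size of -1.02 is set by it.

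Those targets did not share a sign. Ccn2, a matricellular protein induced by Tgf-beta, had 1353, 1024 and 705.4 in homozygous mutants, against 472.0, 574.2 and 397.5 in heterozygotes and 501.7, 633.6 and 582.3 in wild type (log2 fold change 0.80 against wild type, adjusted p = 0.283). All mutant arrays exceeded all others. Msx2, a homeobox target of Bmp signals, averaged 716.9 ± 66.5 in homozygous mutants, 270.9 ± 230 in heterozygotes and 438.6 ± 220 in wild type (SD, n = 3 each), with 0.64 (adjusted p = 0.344). That value rests in part on the floor, which heterozygous 4 (5.6) and wild type 5 and 7 (361.0 and 267.5) did not reach. Snai2, of cushion and crest mesenchyme, averaged 1029.03 ± 179 in homozygous mutants, 707.8 ± 145 in heterozygotes and 591.4 ± 75.3 in wild type, with 0.79 (adjusted p = 0.249). Hand2, a transcription factor of the right ventricle, averaged 559.7 ± 249, 1511 ± 106 and 1310.3 ± 331 in the same order, with -1.06 (adjusted p = 0.143). Homozygous mutant 6 lay under the floor for Hand2, at 314.9, so the size of -1.06 depends on it. Cdkn1a, a cell cycle inhibitor, was under the floor in every homozygous mutant at 1 probe set, so that its -0.53 (adjusted p = 0.313) is a bound, and had -0.08 at the other.

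**Figure D4:**
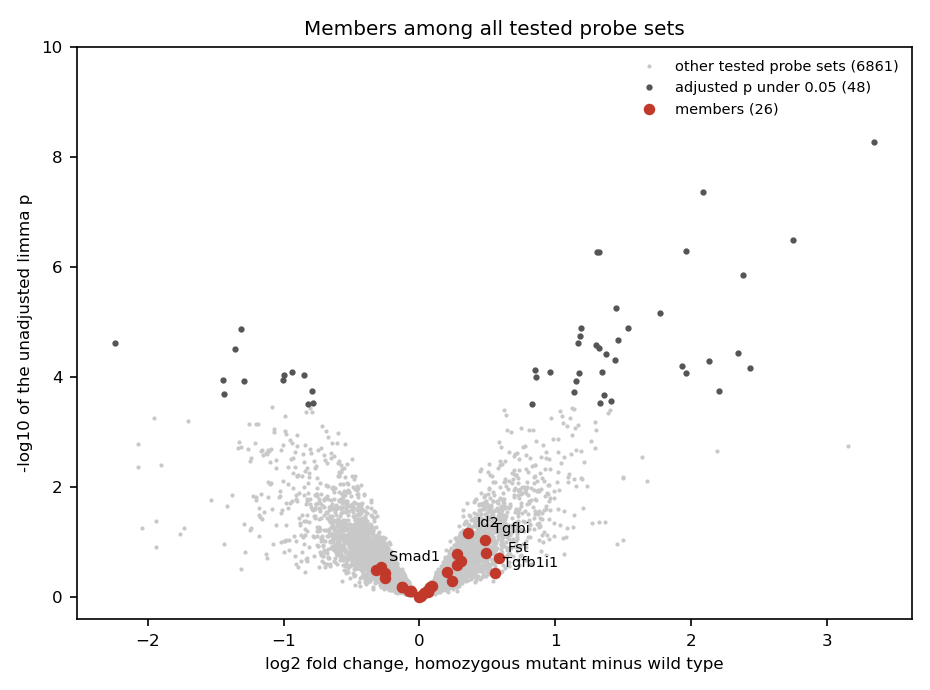
Unadjusted limma p (as -log10, vertical axis) against the log2 fold change of homozygous mutants minus wild type for all 6935 tested probe sets, with the 48 that passed the adjusted threshold dark and the 26 members in red. The members lie low and near the middle, between -0.32 and 0.58, with Id2 highest.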

How the data were processed

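Total RNA was measured on arrays of 2 types. The authors deposited intensity per probe set on a linear scale, with negative values, so background had been subtracted; no source used here names the array software or its scaling. Control probe sets were left out (61 per type). Gene symbols are those of GEO's platform annotation, brought up to date by gene ID: 7542 probe sets had 1 symbol, 224 several and 5291 none, and only the first were named.

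The noise SD, 187.5 for type a and 261.5 for type b, is the median absolute negative value, scaled as a median absolute deviation is to a normal SD. Values under 2 times the noise SD were set to that floor and log2 was taken. Probe sets above it on at least 3 of 9 arrays were fitted per type with limma 3.58.1 in R 4.3.3 (lmFit, eBayes with an intensity trend, two-sided, 3 genotypes sharing the spread). The adjustment (Benjamini-Hochberg) pooled the 2 types, with 0.05 as the threshold. The number of arrays limits the precision. The fit was tested on simulated data.

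The members and lists were chosen with earlier results of these data known. Members named were those with the 4 smallest p-values per comparison, the 2 of highest level in each role group and other probe sets of the same genes; no member was called. Heterozygous array 8 of type b lacks 499 values, none of a member. The alternatives changed floor, filter, scaling, fit, adjustment, an Afp block and the arrays included. The block set homozygous mutant 2, heterozygous 4 and wild type 1, high in Afp, against the other arrays.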

Additional observations from a re-analysis of the deposited data

How the results depend on the processing

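No member was called under any of 19 alternatives in any comparison; the smallest adjusted p of a member ran from 0.0851 (Bmp1, with the floor at 1 time the noise SD) to 0.724 in homozygous mutants against wild type, from 0.110 to 0.438 against heterozygotes and from 0.998 to 1 in heterozygotes against wild type. Over all tested probe sets the 48 calls of homozygous mutants against wild type became 19 with no filter and 7 with only the compared groups, and ran from 14 to 46 when 1 replicate number was left out: omitting wild type 5 gave 14, wild type 7 gave 16, homozygous mutant 2 gave 18 and heterozygous 3 gave 27. Omitting 8a and 9b gave 55. The 80 against heterozygotes became 45 with no filter and 40 with only the compared groups, and ran from 14 to 86 when 1 replicate number was left out: omitting heterozygous 3, 4 or 8 gave 14, 15 or 41, homozygous mutant 2 gave 32 and wild type 5 gave 47. Omitting 8a and 9b gave 88. Heterozygotes against wild type gave 0 to 1 calls, 1 without heterozygous 8 or wild type 7. Among members named for a small p the sign turned for Bmp7 in heterozygotes, with a log2 fold change of -0.62 to 0.092 over the left-out replicates and 0.092 without wild type 5, its brightest array; the cause was not tested. No paired analysis was possible because the genotypes compared share at most 1 replicate number. With the lower floor 39 members were tested and with no filter all 55, but values of dim members lie near the noise, which is a limit of signal over background.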
